A study of Mus musculus with 12 samples.

Results

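Selenoproteins are proteins that carry selenocysteine, the selenium analogue of cysteine, at a position encoded by an in-frame TGA codon. The 10 genes described here were chosen by name as selenoprotein genes outside the glutathione peroxidase family: Selenop, Selenof, Selenok, Selenom, Selenos, Selenot, Selenow, Msrb1, Dio1 and Sephs2. The files list 55487 genes, of which 13535 had enough counts to be tested, and all 10 members were among those tested. Messenger RNA was measured in primary hepatocytes from mouse liver, with 12 libraries in 4 groups of 3. The control group was left untreated, and the FAC group was given only FAC, whose full name the labels leave out. The Lip-1+FAC group was given liproxstatin-1 (Lip-1), a lipid ROS scavenger, on day 2 of culture and then FAC, and the MT+FAC group was given Mito-TEMPO (MT), a mitochondrial ROS scavenger, on the same day and then FAC. ROS are reactive oxygen species, and no group received a scavenger without FAC. Strain, age and sex of the mice, doses and the length of exposure are not given in the sources used here.

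Selenocysteine is built on its own transfer RNA from selenophosphate, which Sephs2 makes, and it is inserted at TGA only where a hairpin in the 3′ untranslated region recruits a dedicated binding protein and elongation factor. Without that machinery the same codon ends translation, so messenger RNA levels of these genes do not give protein levels. Hepatocytes are the main source of selenoprotein P (Selenop), the plasma protein that carries selenium to other tissues. Apart from Selenop and Sephs2, the members comprise small redox proteins of the endoplasmic reticulum (ER) and the cytosolic thioredoxin-fold protein Selenow. They also include a methionine sulfoxide reductase and the deiodinase that activates thyroid hormone.

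The 10 genes hold 19 selenocysteine codons in the GENCODE transcripts used here, and the coding sequence around the first codon of each is shown so that its place and its neighbours can be compared. In the members with a thioredoxin-like fold the codon lies inside the redox site, and in Selenok and Selenos it lies at the very end of the protein. Each line gives 12 coding bases on either side of the codon where the coding sequence reaches that far, read 5′ to 3′, with the selenocysteine codon in capitals.
Selenow: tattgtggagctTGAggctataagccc
Selenot: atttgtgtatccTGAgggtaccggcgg
Selenom: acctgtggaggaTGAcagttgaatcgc
Selenof: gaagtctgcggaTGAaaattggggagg
Selenop: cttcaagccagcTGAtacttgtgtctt
Msrb1: caatcaagattcTGAatatttagcagc
Dio1: ggcagttgcaccTGAccttcatttctt
Sephs2: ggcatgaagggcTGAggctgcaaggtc
Selenok: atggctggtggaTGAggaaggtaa
Selenos: tcatctggcggcTGAaactaa
In Selenow, Selenot and Selenom a cysteine codon (tgt) stands 3 codons before the selenocysteine codon. Selenof and Dio1 have a cysteine codon (tgc) 2 codons before it, Sephs2 has one (tgc) 2 codons after it, and the first selenocysteine codon of Selenop has one (tgt) 3 codons after it. The stretches printed for Msrb1, Selenok and Selenos hold no cysteine codon. Selenos has its selenocysteine at codon 189 of 190 and Selenok at codon 92 of 94, whereas Sephs2 has it at codon 63 of 452 and Selenow at codon 13 of 88. Selenop is the exception in number, with 10 selenocysteine codons among 380. Its last 4 lie in the final stretch of 54 bases, codons 364 to 381 with the stop codon, shown because this repeated use of the codon is what makes the protein a selenium carrier.
Selenop end: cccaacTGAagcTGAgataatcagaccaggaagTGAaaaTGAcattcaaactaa

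Depth was 22991598 to 31683376 gene-assigned counts per library, except for FAC replicate 2 with 52529278, whose file is marked as combined without saying what was combined. The hepatocyte label was checked against 6 markers (Alb, Apoa1, Ttr, Hnf4a, Cyp3a11, Serpina1c), which were detected in every group. Levels are given as normalized counts (CPM, with library sizes scaled by TMM). A call means an adjusted p under 0.05 in the quasi-likelihood test of edgeR, with Benjamini-Hochberg adjustment over the 13535 genes tested. The labels do not say whether replicates came from separate animals or cultures, so p-values measure the spread between these libraries, which may be technical.

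Per length of transcript, Selenop stood far above the other members. Selenop averaged 3569 CPM per kb over the 12 libraries, rank 7 of the 11876 protein-coding genes tested. Selenof followed with 266 CPM per kb (rank 226), Sephs2 with 163 (rank 402) and Selenow with 133 (rank 496). The order of Selenof and Sephs2 depends on the count column: with the stranded columns summed, which keeps reads from bases shared with a gene on the opposite strand, Sephs2 held 275 and Selenof 243 CPM per kb. Selenok held 88.2 and Selenos 80.5 CPM per kb. Msrb1 held 15.5, Selenot 10.1 and Dio1 4.84 CPM per kb, the last at rank 6976. Selenom, an ER protein best known from brain, was at the floor of detection with 0.357 CPM per kb and 1 to 17 counts per library. In summed CPM, Selenop made up 84.5% to 87.3% of the reads of the 10 genes in every library, so the summed level follows Selenop.

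**Figure D1:**
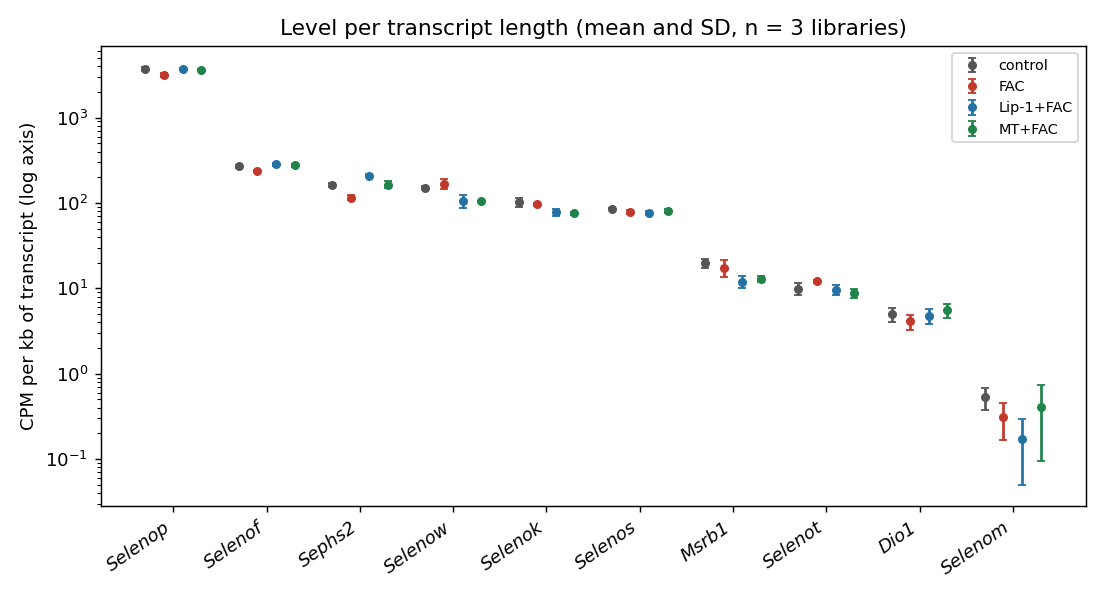
Mean level of each gene in CPM per kb of transcript on a log axis, by group, with the SD of 3 libraries as bars. Selenop, at 3164 to 3739 CPM per kb, lies above every other member in all 4 groups, and Selenom lies below 1 CPM per kb in all of them.

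In FAC-treated cells 3 of the 10 genes were lower than in control cells and none was called higher: Selenop, Selenof and Sephs2. These are the 3 most abundant members per length. Among all genes tested, 36.6% were called in this comparison (17.5% higher and 19.1% lower), so 3 of 10 members is near the background. For 4 members no library of one group reached the range of the other, beside 46.2% of all genes. The median log2 fold change of the 10 genes was -0.18, beside -0.01 over all genes tested. In bulk RNA, fewer cells of a type and less RNA per cell cannot be told apart.

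Selenop (GRCm38, chr15:3268547-3280508, + strand) encodes the selenium carrier of plasma. Its CPM was 7756, 7421 and 8210 in the control libraries and 6941, 6724 and 6123 in the FAC libraries. All FAC libraries lay below all control libraries, and the means were 7795 ± 396 and 6596 ± 424 CPM (SD, n = 3). The log2 fold change was -0.24 (SE 0.0586, adjusted p = 0.00346 by edgeR), with a 95% interval of -0.36 to -0.12. With offsets for gene length and GC content the call was lost, at -0.11 (adjusted p = 0.166 by edgeR). Selenop shares 15.4% of its exonic bases with Ccdc152 on the opposite strand. Selenop held 151664 to 351109 unstranded counts, and 206732 to 474575 in the summed stranded columns, a level 1.24 times as high per kb.

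Sephs2 (chr7:127271879-127274055, - strand), itself a selenoprotein, makes the selenophosphate from which all selenocysteine is built. Its CPM was 337, 362 and 375 in control libraries and 240, 244 and 269 in FAC libraries. The groups were separate, and Sephs2 fell by 29.9% (log2 fold change -0.51, SE 0.0686, adjusted p = 1.55e-05 by edgeR). It was called in this direction under all 16 alternatives, between -0.57 and -0.41. Sephs2 shares 36.4% of its exonic bases with the gene model Gm44729 on the opposite strand, and unstranded counting gives reads from shared bases to neither gene. In the summed stranded columns, which give such reads to both genes, Gm44729 held 5297 to 13678 counts and Sephs2 11972 to 26427, against 6557 to 12749 unstranded counts for Sephs2. The level of Sephs2 was 1.69 times as high that way, and its log2 fold change was -0.43 (adjusted p = 5.77e-05 by edgeR).

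Selenof (chr3:144570304-144597680, + strand) is an ER-lumen protein that binds the glycoprotein folding sensor Uggt1. It measured 400, 397 and 428 CPM in control libraries and 352, 355 and 370 CPM in FAC libraries. Again no FAC library reached a control library, and the log2 fold change was -0.19 (SE 0.053, adjusted p = 0.00993 by edgeR). That call was lost with length and GC offsets (-0.11, adjusted p = 0.1002 by edgeR), without control replicate 3 (-0.15, 0.055) and without FAC replicate 1 (-0.17, 0.0503).

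The remaining 7 genes were not called in FAC against control. Selenot (chr3:58576636-58593133, + strand), a thioredoxin-fold protein of the ER membrane, was nearest to the threshold, with 30.5, 26.7 and 36.4 CPM in control libraries and 38.7, 36.4 and 39.6 in FAC libraries. Control replicate 3 overlapped the FAC libraries, and the log2 fold change was 0.29 (SE 0.117, adjusted p = 0.0607 by edgeR). It was called higher under 7 of 16 alternatives, among them DESeq2 (0.31, adjusted p = 0.0387) and the fit without control replicate 3 (0.42, adjusted p = 0.00969 by edgeR). Selenow and Selenok differed by 0.14 and -0.09, Msrb1 by -0.18, Selenos by -0.13, Dio1 by -0.29 and Selenom by -0.65 on the log2 scale. Of these, Selenos was lower in every FAC library than in every control library (88.9 to 97.3 against 101.8 to 103.4 CPM) with an adjusted p of 0.127 by edgeR, and Msrb1 was called lower only without FAC replicate 3 (-0.37, adjusted p = 0.0411 by edgeR).

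**Figure D2:**
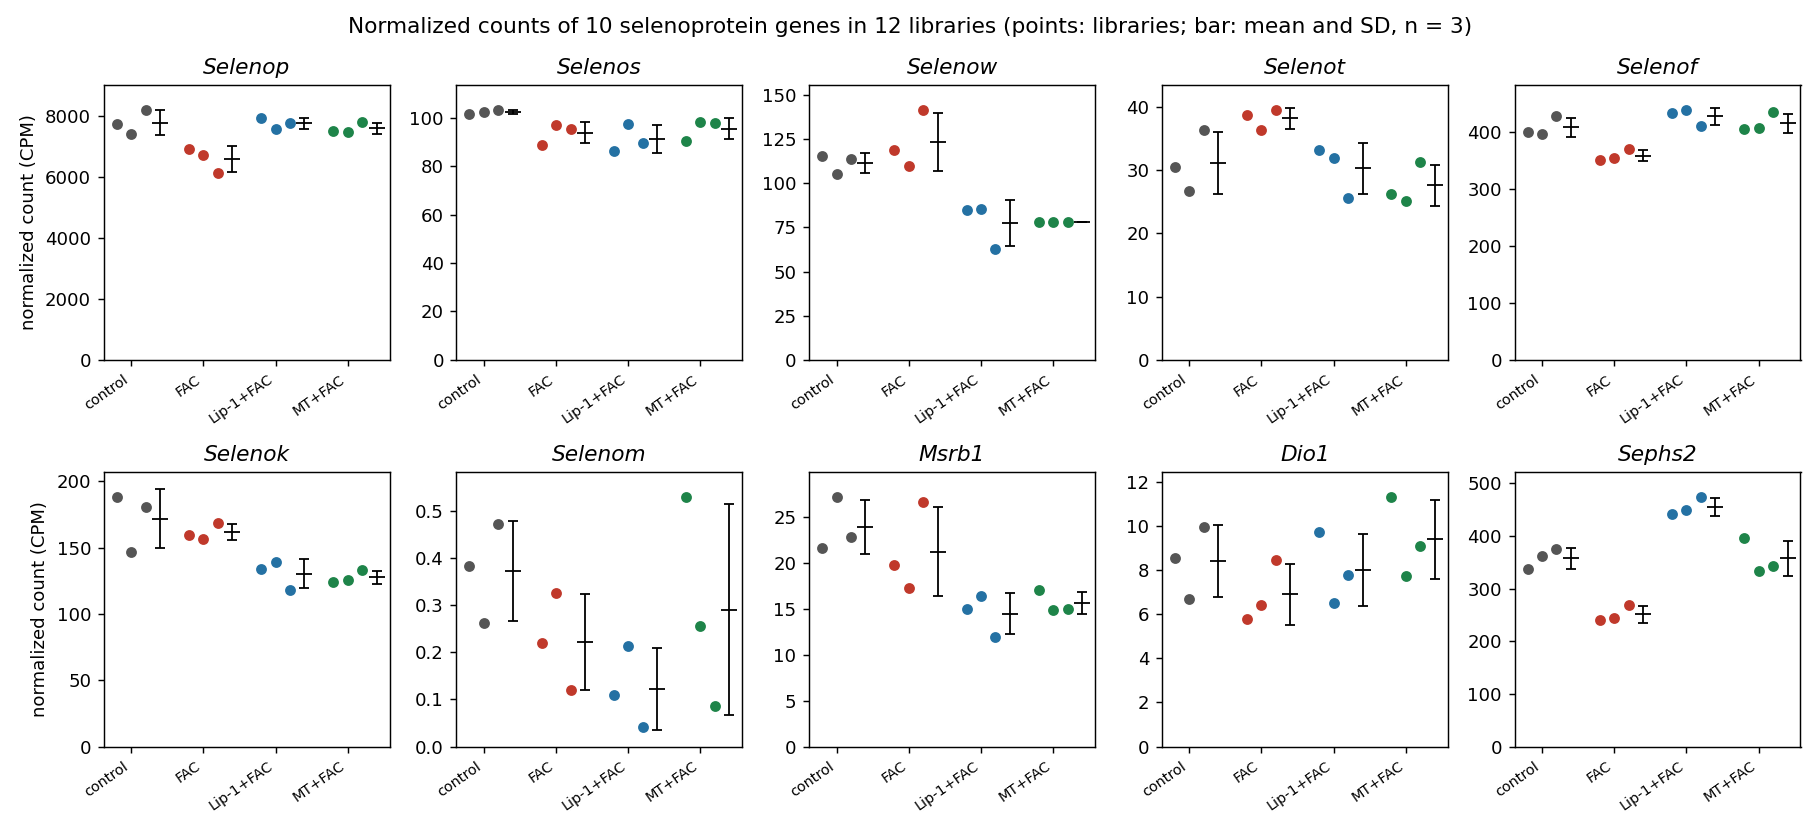
CPM of each gene in each of the 12 libraries (points), with the mean and SD of the 3 libraries of a group (bars), each panel on its own linear axis from 0. Sephs2 lies lowest in the FAC libraries and highest in the Lip-1+FAC libraries, and Selenow lies below all control and FAC libraries in both pretreated groups.

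Both pretreatments were accompanied by a division of the members. Against FAC alone, Selenop, Selenof and Sephs2 were higher and Selenow, Selenot, Selenok and Msrb1 lower, in Lip-1+FAC and again in MT+FAC. Selenos, Selenom and Dio1 were called in neither. The 2 comparisons share the FAC libraries, so one does not stand as independent support of the other. In Lip-1+FAC against FAC 3 members were called higher and 4 lower, 7 of 10 in all, beside 39.9% of all genes tested (20.7% higher, 19.2% lower). The same 7 were separated without overlap, beside 50.8% of all genes. The median log2 fold change was -0.18 over the 10 and 0.000625 over all genes. In MT+FAC against FAC 3 were again higher and 4 lower, beside 40.9% of all genes (21.2% higher, 19.7% lower), and 7 did not overlap, beside 52.9%. The median there was 0.11 over the 10 and -0.00114 over all genes.

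Among the 3 that were higher, Sephs2 moved most. It measured 442, 450 and 475 CPM in the Lip-1+FAC libraries and 396, 334 and 344 CPM in the MT+FAC libraries, against 240 to 269 in FAC. Every pretreated library exceeded every FAC library. The log2 fold change was 0.86 with Lip-1 (SE 0.0688, adjusted p = 4.47e-08 by edgeR), a rise of 81.5%, and 0.51 with MT (SE 0.0686, adjusted p = 1.53e-05), a rise of 42.6%. Both calls held under every alternative run.

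Selenop measured 7949, 7588 and 7765 CPM in Lip-1+FAC and 7529, 7476 and 7803 CPM in MT+FAC. All 6 lay above the highest FAC library at 6941 CPM and inside the control range of 7421 to 8210 CPM. The log2 fold change was 0.24 with Lip-1 (SE 0.0586, adjusted p = 0.00378 by edgeR) and 0.20 with MT (SE 0.0585, adjusted p = 0.00962 by edgeR). Length and GC offsets ended both calls, at 0.06 (adjusted p = 0.405 by edgeR) and 0.08 (0.306), and summing the stranded count columns ended the MT call (0.15, 0.0712). The summed CPM of the 6 hepatocyte markers was 15591 to 16182 in control and FAC libraries and 12739 to 13878 in pretreated libraries. That sum is carried by Alb and Apoa1, and Cyp3a11 ran the other way, with its lowest group mean in FAC at 603 CPM, against 980 CPM in control and 1034 and 915 CPM with Lip-1 and MT. The part of these markers in the result was not tested.

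Selenof measured 434, 439 and 411 CPM in Lip-1+FAC and 405, 407 and 435 CPM in MT+FAC, all above the FAC maximum of 370 CPM. Its log2 fold changes were 0.26 (SE 0.053, adjusted p = 0.000903 by edgeR) and 0.21 (SE 0.053, adjusted p = 0.00388), and both were called under every alternative.

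Selenow (chr7:15917208-15922402, - strand), a small cytosolic thioredoxin-fold protein, was lower in both pretreated groups than in FAC. Its CPM was 118.9, 109.6 and 141.6 in FAC libraries, 85.0, 85.4 and 62.7 in Lip-1+FAC libraries and 78.1, 78.0 and 78.0 in MT+FAC libraries. No pretreated library reached the lowest FAC library, and FAC replicate 3 and Lip-1+FAC replicate 3 were the extremes of their groups. Selenow fell by 36.9% with Lip-1 (log2 fold change -0.66, SE 0.109, adjusted p = 0.000223 by edgeR) and by 36.6% with MT (-0.66, SE 0.109, adjusted p = 0.000256). Offsets for length and GC content, which bear on this short GC-rich transcript (0.736 kb, 57.2% GC), left it called at -0.27 and -0.29, smaller than the values of Selenot in the same fit (-0.53 and -0.60).

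Selenok (chr14:29968308-29975662, + strand) is an ER membrane protein that works with the palmitoyl transferase Zdhhc6 and with the degradation complex of the ER. It measured 160, 157 and 169 CPM in FAC libraries, 134, 140 and 118 in Lip-1+FAC libraries and 124, 125 and 133 in MT+FAC libraries, with no overlap. The log2 fold changes were -0.31 (SE 0.0822, adjusted p = 0.00611 by edgeR) and -0.34 (SE 0.0822, adjusted p = 0.00308), and both were called under every alternative. Other annotated genes with a near copy of its sequence, 7 transcripts of 91.9% to 98.3% identity, held at most 6 counts, and multimapping reads are left out of these counts.

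Selenot measured 33.3, 32.0 and 25.7 CPM in Lip-1+FAC libraries and 26.3, 25.2 and 31.3 CPM in MT+FAC libraries, below the FAC range of 36.4 to 39.6. The log2 fold change was -0.33 with Lip-1 (SE 0.117, adjusted p = 0.032 by edgeR) and -0.47 with MT (SE 0.117, adjusted p = 0.00404). The Lip-1 call was lost without FAC replicate 1 (-0.31), without FAC replicate 3 (-0.30) and without Lip-1+FAC replicate 3 (-0.22), with adjusted p of 0.0826, 0.0875 and 0.161 by edgeR. The MT call was kept under every alternative. Its pseudogene Selenot-ps, at 92.7% identity, held at most 1 count.

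Msrb1 (chr17:24736642-24742778, + strand) reduces the R form of methionine sulfoxide in proteins. It measured 19.7, 17.3 and 26.6 CPM in FAC libraries, 14.99, 16.34 and 11.97 in Lip-1+FAC libraries and 17.0, 14.9 and 14.9 in MT+FAC libraries. FAC replicate 3 was far above the rest, and the FAC minimum lay just above the highest pretreated library. The log2 fold change was -0.54 with Lip-1 (SE 0.151, adjusted p = 0.0091 by edgeR) and -0.43 with MT (SE 0.15, adjusted p = 0.0299). Without FAC replicate 3 the values were -0.35 (adjusted p = 0.0561 by edgeR) and -0.24 (0.181), and with length and GC offsets -0.34 (0.0763) and -0.27 (0.148). The MT call was also lost without MT+FAC replicate 2 (-0.41, 0.0881) and without MT+FAC replicate 3 (-0.40, 0.0904).

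The 3 members called in neither comparison differed in how well they were measured. Selenos (chr7:66079649-66089405, + strand), an ER membrane protein that binds Vcp and the Derlin channel, held 86.5 to 97.6 CPM in Lip-1+FAC and 90.7 to 98.3 CPM in MT+FAC, inside or around the FAC range. Its 95% intervals of -0.17 to 0.09 and -0.11 to 0.15 were narrow. Dio1 (chr4:107291465-107307169, - strand), which converts thyroxine to its active form, measured 5.81, 6.43 and 8.48 CPM in FAC libraries, 9.75, 6.51 and 7.78 in Lip-1+FAC libraries and 11.3, 7.76 and 9.11 in MT+FAC libraries. The groups overlapped, and the MT difference of 0.45 (SE 0.192, adjusted p = 0.0677 by edgeR) was called without FAC replicate 3 (0.62, adjusted p = 0.0251 by edgeR) and without MT+FAC replicate 2 (0.56, 0.0453). Selenom (chr11:3514684-3517351, + strand) gave intervals as wide as -2.40 to 0.62, so a change was not detectable at this depth.

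**Figure D3:**
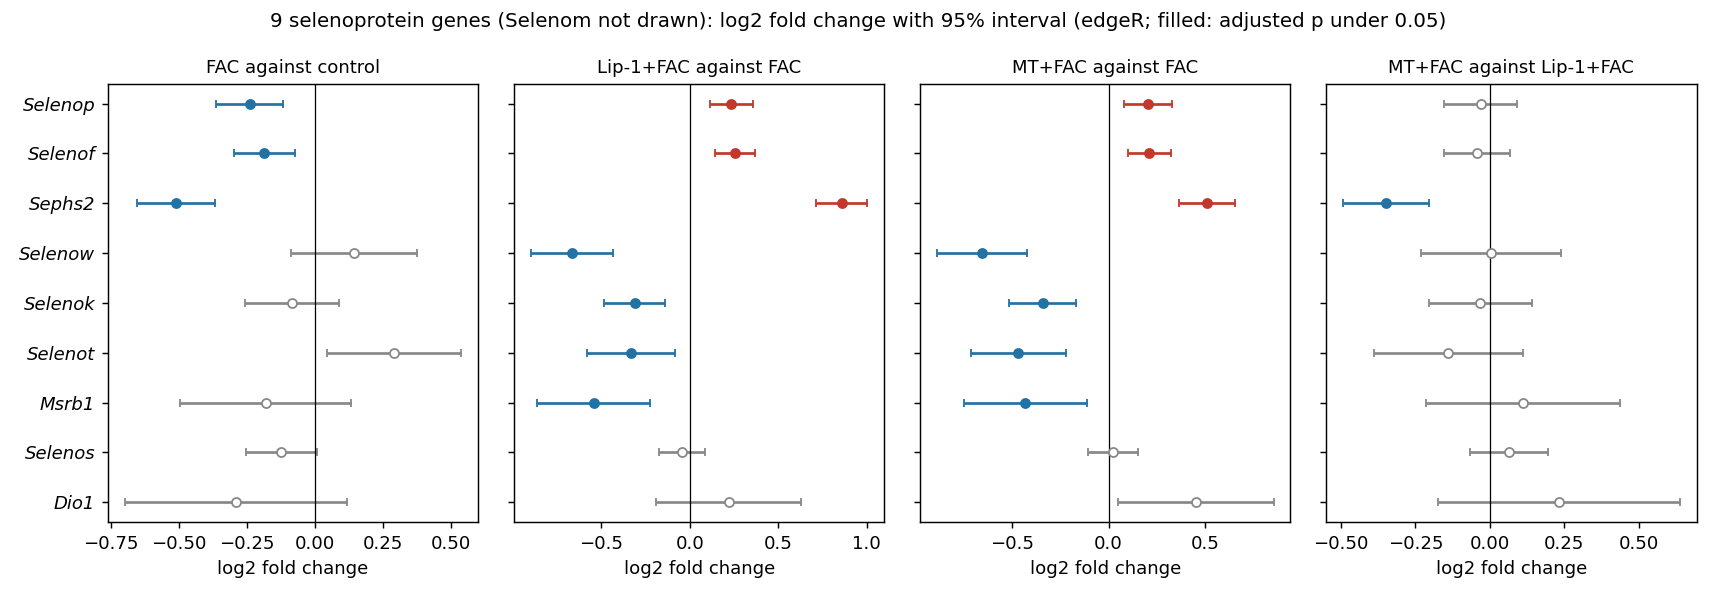
Log2 fold change of 9 genes in 4 comparisons with 95% intervals from edgeR, filled where the adjusted p was under 0.05, red for higher and blue for lower. Selenop, Selenof and Sephs2 lie to the left in FAC against control and to the right in both pretreated groups against FAC, and Selenow, Selenok, Selenot and Msrb1 lie to the left in the latter. Each of these comparisons uses the same FAC libraries.

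Between the pretreatments, only Sephs2 was called among the 10 genes, in the lower direction, beside 1.34% of all genes tested (0.465% higher, 0.879% lower). It was also the only member without overlap of the libraries, beside 19.8% of all genes. It was lower in MT+FAC, at 334 to 396 CPM, than in Lip-1+FAC, at 442 to 475 CPM. The log2 fold change was -0.35 (SE 0.0683, adjusted p = 0.0149 by edgeR). The call was lost without Lip-1+FAC replicate 2 (-0.36, adjusted p = 0.0539), Lip-1+FAC replicate 3 (-0.32, 0.0507), MT+FAC replicate 2 (-0.31, 0.0788) or MT+FAC replicate 3 (-0.32, 0.0971), all by edgeR. For the uncalled members the 95% intervals of the difference were -0.15 to 0.09 for Selenop, -0.15 to 0.07 for Selenof, -0.23 to 0.24 for Selenow and -0.21 to 0.14 for Selenok. The higher calls made up 34.6% of all 182 genes called here, and 46.7% with upper-quartile scaling, 49.7% without the filter on low counts and 44.6% with DESeq2.

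Against control, pretreated cells had less messenger RNA of the cytosolic Selenow and Msrb1 and of the ER protein Selenok. Selenow, Selenok and Msrb1 were lower than control in both pretreated groups, with log2 fold changes of -0.52, -0.40 and -0.72 in Lip-1+FAC and -0.51, -0.43 and -0.61 in MT+FAC. Their adjusted p-values by edgeR ran from 0.00141 to 0.00899. With length and GC offsets the Selenow values were -0.26 (adjusted p = 0.0441 by edgeR) and -0.28 (0.0452). Selenos was not called in Lip-1+FAC against control (-0.17, adjusted p = 0.0511 by edgeR), but was called lower under 5 of 16 alternatives. Sephs2 was above control in Lip-1+FAC (0.35, adjusted p = 0.000846 by edgeR) and at the control level in MT+FAC (358 CPM in both, 95% interval -0.14 to 0.14). Selenop and Selenof were called in neither, with intervals of -0.13 to 0.12 and -0.04 to 0.18 in Lip-1+FAC and of -0.16 to 0.09 and -0.09 to 0.14 in MT+FAC. In Lip-1+FAC against control 1 member was higher and 3 lower, beside 30.2% of all genes called (15.4% higher, 14.8% lower), and 6 did not overlap, beside 43.3%. In MT+FAC against control none was higher and 3 were lower, beside 19.8% of all genes called (9.71% higher, 10.1% lower), and 4 did not overlap, beside 38.2%.

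Ordered by mean CPM, Sephs2 ran FAC, MT+FAC, control, Lip-1+FAC, and of the neighbouring steps the one between MT+FAC and control did not exceed the spread. For Selenop the order was FAC, MT+FAC, Lip-1+FAC, control, and only the step from FAC to MT+FAC was called. For Selenow it was Lip-1+FAC, MT+FAC, control, FAC, with a called step between MT+FAC and control only. Selenok had its called step between Lip-1+FAC and FAC, and Msrb1 between MT+FAC and FAC. Across 12 libraries, the genes most like Selenop in log2 CPM were Lbhd1 (Pearson r = 0.95), Adk (0.946) and Gtpbp8 (0.94) among 8946 candidates with a mean of at least 5 CPM. The genes most like Dio1 were Fam131c (0.864), F7 (0.864) and Sdccag8 (0.838). These are descriptions over libraries that share their groups.

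The machinery that makes and inserts selenocysteine was described with 12 genes, all tested. In FAC against control 1 was called higher and 4 lower, beside 36.6% of all genes called, so the share is near the background. The serine-tRNA synthetase Sars, which charges the transfer RNA with serine, rose from 300 ± 9.97 to 401 ± 11.8 CPM (SD, n = 3; log2 fold change 0.42, SE 0.0555, adjusted p = 1.38e-05 by edgeR). The 4 lower genes were Pstk (-0.46) and Sepsecs (-0.28), which turn that serine into selenocysteine, the elongation factor Eefsec (-0.24), and Sephs1 (-0.25), the relative of Sephs2 without selenocysteine. In Lip-1+FAC against FAC 4 were higher and none lower, beside 39.9% of all genes called: Secisbp2l (0.50, adjusted p = 2.38e-05 by edgeR), Sepsecs (0.44), Eefsec (0.37) and Sephs1 (0.32). In MT+FAC against FAC the same 4 genes were higher, at 0.20, 0.48, 0.28 and 0.35, and Rpl30 (-0.90, adjusted p = 0.0342 by edgeR), Trnau1ap (-0.25) and Sars (-0.18) were lower, beside 40.9% of all genes called. Of 16 alternatives of that comparison, 7 ended the Rpl30 call, 9 that of Secisbp2l and 4 that of Sars. They include the fits without MT+FAC replicate 1 (-0.87, 0.20 and -0.14) and MT+FAC replicate 3 (-0.95, 0.18 and -0.17) for all 3 genes. The Rpl30 call was also lost without FAC replicate 1 (-0.85) or FAC replicate 3 (-0.76), and that of Secisbp2l without FAC replicate 2 (0.21) or 3 (0.14). Without MT+FAC replicate 2 the calls of Rpl30 (-0.88) and Secisbp2l (0.20) were lost. That of Sars was lost without FAC replicate 1 (-0.17) or 2 (-0.16). The values with all libraries were -0.90 for Rpl30, 0.20 for Secisbp2l and -0.18 for Sars. Pstk, Sepsecs, Eefsec, Sephs1 and Trnau1ap are named to complete counts and were chosen after their values were seen.

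**Figure D4:**
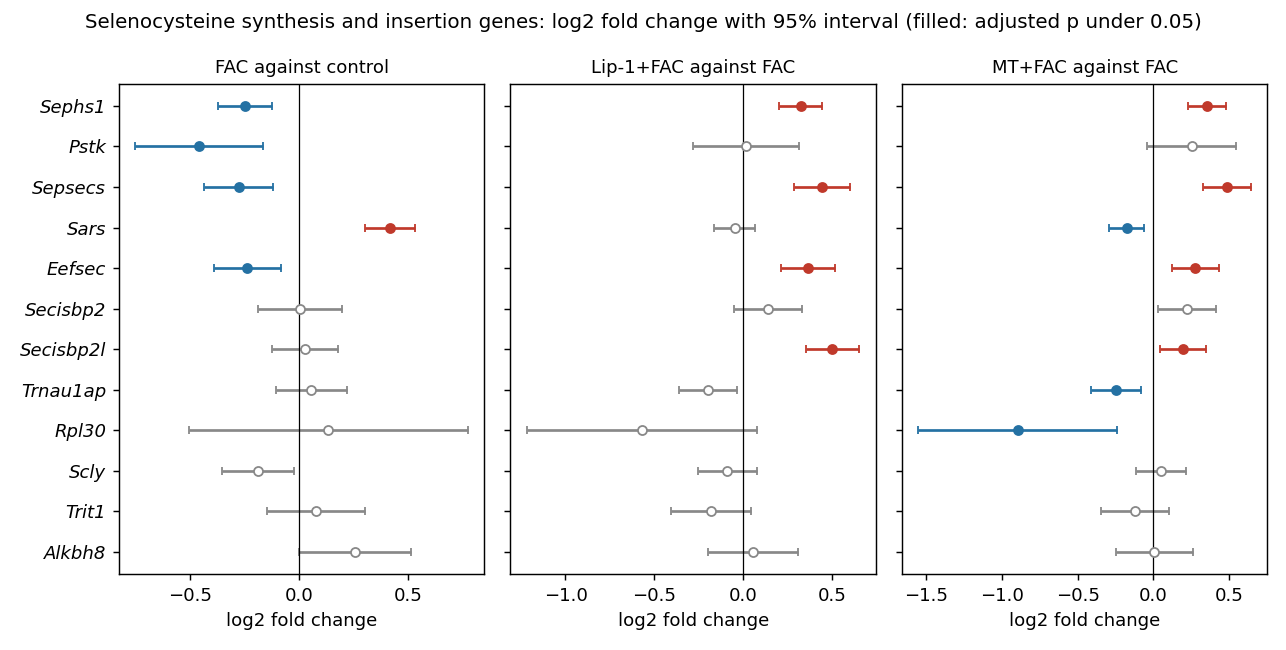
Log2 fold change of 12 genes of selenocysteine synthesis and insertion in 3 comparisons with 95% intervals from edgeR, filled where the adjusted p was under 0.05. Sephs1, Sepsecs and Eefsec lie to the left in FAC against control and to the right in both pretreated groups against FAC. All 3 comparisons use the same FAC libraries.

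Other selenoprotein genes, 14 in number and including the glutathione peroxidases, gave 12 tested genes. In FAC against control 3 were higher and 2 lower, beside 36.6% of all genes called. Txnrd1, the cytosolic thioredoxin reductase, rose from 675 ± 19.5 to 1106 ± 55.7 CPM (SD, n = 3; log2 fold change 0.71, SE 0.0589, adjusted p = 7.03e-08 by edgeR), opposite to Selenop and Sephs2, and Txnrd3 rose by 0.58. Selenon was lower (-0.73, adjusted p = 0.0482 by edgeR), with group means of 1.25 CPM in FAC and 2.13 CPM in control, and 10 of 15 alternatives ended that call, among them those without control replicate 1 (-0.73), control replicate 2 (-0.58), FAC replicate 1 (-0.54) or FAC replicate 3 (-0.68). Selenon was higher in MT+FAC than in FAC (1.13, SE 0.273, adjusted p = 0.00299 by edgeR), a call kept under 15 of 15 alternatives. In Lip-1+FAC against FAC 2 of the 12 were higher and 3 lower, beside 39.9% of all genes called, and in MT+FAC against FAC 3 were higher and 4 lower, beside 40.9%. Dio3, the deiodinase that inactivates thyroid hormone, fell by 2.52 on the log2 scale with Lip-1 and by 2.17 with MT, from 4.56 CPM in FAC to 0.781 and 1.01 CPM. Selenoh, a nuclear thioredoxin-fold protein, fell by 0.53 and by 0.72. Its Lip-1 call was lost with length and GC offsets (-0.29, adjusted p = 0.205 by edgeR) and without FAC replicate 2 (-0.42, 0.114), Lip-1+FAC replicate 2 (-0.50, 0.0742) or Lip-1+FAC replicate 3 (-0.42, 0.106). Txnrd1 was higher again with Lip-1 (0.43, adjusted p = 1.44e-05 by edgeR) and by 0.16 with MT. The latter call was lost in 10 of 16 alternatives, among them length and GC offsets (0.04, adjusted p = 0.557 by edgeR). It was also lost without FAC replicate 1 (0.18), 2 (0.18) or 3 (0.12) and without MT+FAC replicate 2 (0.11) or 3 (0.17). Between the pretreatments Txnrd1 was lower in MT+FAC (-0.27, adjusted p = 0.0272 by edgeR), a call lost in 5 of 16 alternatives: without Lip-1+FAC replicate 1 (-0.29), 2 (-0.30) or 3 (-0.23), or MT+FAC replicate 1 (-0.24) or 3 (-0.27).

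Receptors that take up Selenop were measured as Lrp8, Lrp1 and Lrp2, the last too low to test. Lrp8 (ApoER2) rose from 12.1 ± 1.33 to 30.9 ± 2.89 CPM in FAC (SD, n = 3; log2 fold change 1.36, SE 0.107, adjusted p = 3.77e-08 by edgeR). It stayed at 33.3 CPM in Lip-1+FAC and was lower, at 21.6 CPM, in MT+FAC (-0.52 against FAC, adjusted p = 0.000606, and -0.62 against Lip-1+FAC, adjusted p = 0.00329, by edgeR). Lrp1 rose by 0.43 in FAC, a call lost with length and GC offsets (0.03, adjusted p = 0.726 by edgeR). Unlike Lrp8 by its values, Lrp1 fell with Lip-1 (-0.36 against FAC, adjusted p = 0.0019 by edgeR), a call also lost with the offsets (-0.11, 0.152), and the MT value of -0.19 was not called (adjusted p = 0.0755 by edgeR), except with the stranded columns summed (-0.21, 0.0422) and without MT+FAC replicate 1 (-0.28, 0.0196). Summed stellate cell and fibroblast markers were also highest in FAC, at 18.7 to 19.6 CPM against 7.50 to 14.1 CPM elsewhere. Reln alone carried that sum, with a group mean of 16.1 CPM in FAC, 7.46 in control, and 4.53 and 5.23 with Lip-1 and MT, while Lrat, Pdgfrb, Col1a1 and Col3a1 had their lowest means in FAC. The part of these markers in the receptor values was not tested.

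The ER partners of Selenos, Selenok and Selenof, 12 genes of which 11 were tested, showed 1 higher and 1 lower gene in FAC against control, beside 36.6% of all genes called. Vcp, the ATPase that extracts proteins from the ER membrane, was called at 0.15 (adjusted p = 0.0263 by edgeR), lost with upper-quartile scaling (0.13, 0.0518) and without control replicate 1 (0.14, 0.0771), control replicate 2 (0.15, 0.0726) or FAC replicate 3 (0.12, 0.0885). In Lip-1+FAC against FAC 5 were higher and 1 lower, beside 39.9% of all genes called, and in MT+FAC against FAC 2 were higher and 2 lower, beside 40.9%. Uggt1, the binding partner of Selenof, was higher in both (0.30 and 0.27), as was Zdhhc6, the partner of Selenok (0.21 and 0.16), while Selenok itself was lower. Uggt1 and Zdhhc6 were chosen after their values were seen.

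Among the methionine sulfoxide reductases without selenocysteine, the mitochondrial Msrb2 fell in FAC from 12.5 to 6.66 CPM (log2 fold change -0.92, SE 0.14, adjusted p = 5.53e-05 by edgeR) and was higher in both pretreated groups than in FAC (0.81 and 0.89). Msrb1 did not share that pattern by its values, being -0.18 in FAC and lower in both pretreated groups. Of these 3 genes, 2 were lower in FAC against control, beside 19.1% of all genes, and Msra, the most abundant, was called in none of the 3 main comparisons. Selenium-binding proteins without selenocysteine also fell in FAC, Selenbp1 by 0.52 and Selenbp2 by 0.52 on the log2 scale, 2 of 4 genes in that list, beside 19.1% of all genes called lower. In Lip-1+FAC against FAC 1 of the 4 was higher and 2 lower, beside 39.9% of all genes called. In MT+FAC against FAC 2 were higher and 1 lower, beside 40.9%. Selenbp1 fell by a further 0.53 with Lip-1 and was not called with MT (-0.15, adjusted p = 0.194 by edgeR). Selenbp2 was not called with Lip-1 and was higher with MT (0.18, adjusted p = 0.0207 by edgeR), a call lost in 3 of 16 alternatives. Inmt, which methylates selenium compounds, fell by 1.78 with Lip-1 and by 1.63 with MT.

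Thyroid hormone genes were set beside Dio1 as a list of 8. In FAC against control 2 were higher and 4 lower, beside 36.6% of all genes called. Klf9, a target of the hormone receptor, rose by 0.59, and the receptor Thra was lower (-0.73). In Lip-1+FAC against FAC 4 were higher and 1 lower, beside 39.9% of all genes called, and in MT+FAC against FAC 4 were higher and 2 lower, beside 40.9%. Thra was higher by 0.87 and 1.07, and Klf9 fell by 0.53 and by 0.68. Me1, a lipogenic enzyme and the most abundant of the list, was higher by 0.26 in FAC and by a further 0.51 with Lip-1. The FAC value of Thra, measured at 1.58 to 3.38 CPM in group means, turned to 0.10 (adjusted p = 0.708 by edgeR) when the stranded count columns were summed. Its FAC call was also lost without control replicate 2 (-0.66), control replicate 3 (-0.61) or FAC replicate 1 (-0.64), and its MT call with the summed columns (0.46, adjusted p = 0.0519 by edgeR), as was its Lip-1 call (0.19, 0.424).

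The 12 promoter sequences of the 10 genes (3 for Selenop, which has 3 listed start sites) span 300 bases around each RefSeq start site on GRCm38.p6. They were searched on both strands for 5 short motifs, because Sephs2, Selenop and Selenof moved in the same direction in 3 comparisons. All 3 comparisons use the same FAC libraries, so they are not separate agreements. The FoxO motif GTAAACA was found at 1 of the 3 start sites of Selenop, 24 bases before it, and at neither of the others, and is held by 3.65% of 32851 promoters. The E box CACGTG was found in Selenos and Sephs2 and is held by 7.15%. The antioxidant response core TGACNNNGC was found in Selenok and is held by 12.4%, and the ATF4 motif TGATGNAA (held by 3.97%) and the ER stress response element (held by 0.119%) were found in none. No motif was found in more than 2 of the genes, and a match describes letters, not binding. The promoter of Sephs2, called in FAC against control and in both pretreated groups against FAC, is chr7:127274010-127274309 on the - strand, with 26 CpG dinucleotides against a median of 7 over all promoters, and the capitals mark the E box.
Sephs2 promoter: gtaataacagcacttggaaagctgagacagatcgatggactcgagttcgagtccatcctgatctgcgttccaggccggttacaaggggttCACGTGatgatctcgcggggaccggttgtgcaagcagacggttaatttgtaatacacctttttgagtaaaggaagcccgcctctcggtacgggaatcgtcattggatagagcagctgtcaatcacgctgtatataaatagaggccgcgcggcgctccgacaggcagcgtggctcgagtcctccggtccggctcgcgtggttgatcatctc

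Values that moved with the groups beside these genes were as follows. Mitochondrially encoded reads made up 0.954% to 1.23% of counts in control and FAC libraries and 0.639% to 0.798% in pretreated libraries. Cholangiocyte markers summed to 81.4 to 93.5 CPM in control libraries and to 112 to 163 CPM in the other groups, and endothelial markers to 33.6 to 36.0 CPM in control and FAC libraries and 24.9 to 29.7 CPM in pretreated libraries. The endothelial difference lay in Stab2 (group means of 28.2 CPM in control and 26.5 CPM in FAC, but 17.9 and 19.2 CPM with Lip-1 and MT), while Kdr and Pecam1 had higher means in both pretreated groups than in control and FAC. Among the cholangiocyte markers Sox9 was highest in FAC (53.4 CPM) and Spp1 in the pretreated groups (101 and 103 CPM). Kupffer cell markers summed to 6.71 to 13.6 CPM, and lymphocyte markers to at most 0.432 CPM, with 3 or 4 of 5 at 0 in every library of a group. Their part in the selenoprotein values was not tested.

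**Figure D5:**
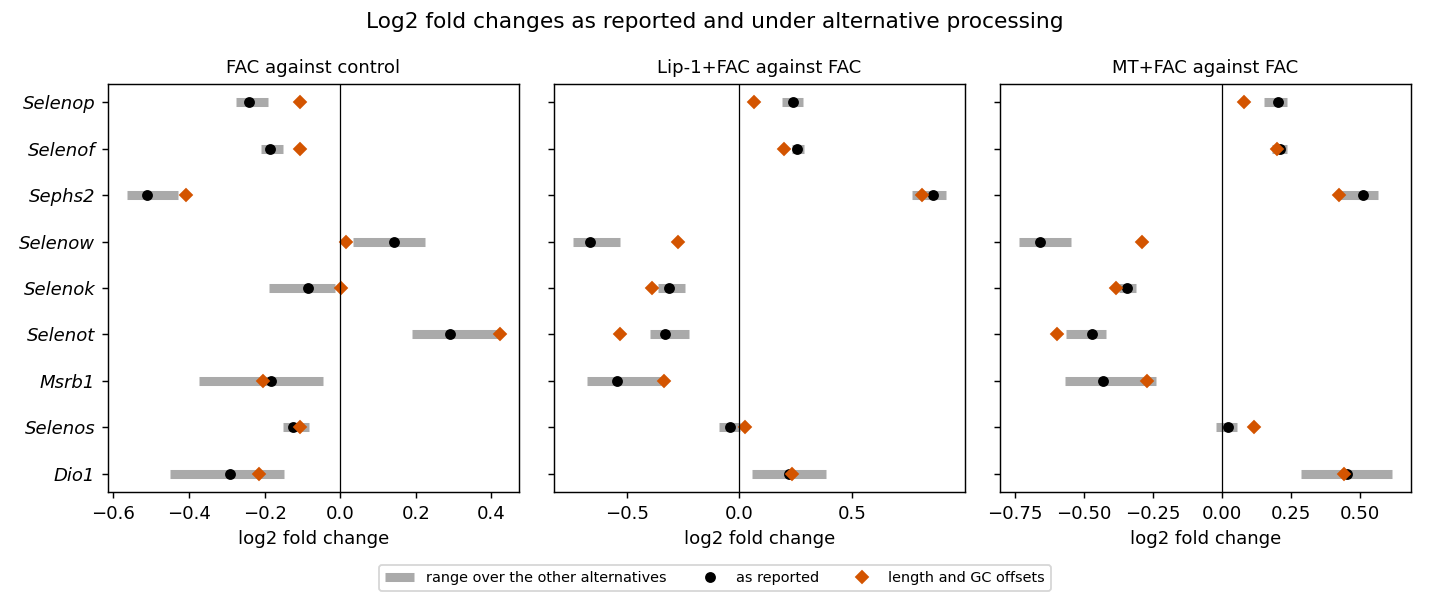
Log2 fold change of 9 genes in 3 comparisons as reported (black), with offsets for gene length and GC content (orange) and the range over the other alternatives (grey). Offsets moved Selenop toward 0 in all 3 comparisons and Selenow toward 0 in both pretreated groups, and Sephs2 stayed between -0.57 and -0.41 in FAC against control.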

How the data were processed

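Total RNA of primary mouse hepatocytes was turned into cDNA with SMART-Seq v4, made into Nextera XT libraries and sequenced as paired ends, per the labels' protocols. The authors deposited raw counts of reads per gene, not normalized, in 4 columns per file; STAR and GRCm38 are named in the submitters' processing notes, and the version and annotation are not given in the sources used here. The unstranded counts were used. Oligo-dT priming and PCR without molecular identifiers limit precision for short or rare transcripts, and multimapping reads are not counted.

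Genes kept by filterByExpr (13535) were tested with edgeR 4.0.16 in R 4.3.3: TMM, robust quasi-likelihood fit over 12 libraries with 4 group means, two-sided, Benjamini-Hochberg over all of them. The script was tested on simulated data. Alternatives changed scaling, filter, test (DESeq2 1.42.0), libraries in the fit, replicate block, counting columns, depth, length and GC offsets, and left out each library. Coordinates and transcripts come from GENCODE M21 (GRCm38), promoters from RefSeq (GRCm38.p6; 10 of 10 genes matched), copies from blastn 2.17.0+.

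The members, the 7 gene lists and the markers were chosen with earlier results of these data known. Named beside the members were, per list, the most abundant gene and called genes whose log2 fold change reached 0.5 in either direction in FAC against control or a pretreated group against FAC. A gene that this rule names is not reported here.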

Additional observations from a re-analysis of the deposited data

Results flagged for a closer look

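Sephs2 stands out because the pretreatments differed in their effect on it by a test of the difference itself: the log2 fold change of MT+FAC against Lip-1+FAC, which equals the difference of their effects against FAC, was -0.35 (SE 0.0683, adjusted p = 0.0149 by edgeR over 13535 genes), with all 3 MT+FAC libraries below all 3 Lip-1+FAC libraries. The call was lost in 4 of the 6 fits that left out a library of these groups: without Lip-1+FAC replicate 2 (-0.36, adjusted p = 0.0539 by edgeR) or 3 (-0.32, 0.0507), or MT+FAC replicate 2 (-0.31, 0.0788) or 3 (-0.32, 0.0971). The difference is not particular to Sephs2 among selenoprotein genes, since Txnrd1 was also lower in MT+FAC than in Lip-1+FAC (-0.27, adjusted p = 0.0272 by edgeR).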

How the results depend on the processing

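Of 942 member values over the alternatives, 903 kept their side of the threshold, 863 of them with the same sign and 40, uncalled in both fits, with the other sign. The call was lost in 21 and gained in 18, with no change of sign. In FAC against control the number called higher was 1 (Selenot) instead of 0 with RLE scaling, no filter, DESeq2, only the compared groups, thinning, or length and GC offsets, and 0 to 1 over the fits leaving out a library. The number called lower was 1 instead of 3 with the offsets, and 2 to 4 leaving out a library. For Lip-1+FAC against FAC leaving out a library gave 2 to 4 called lower, and for MT+FAC against Lip-1+FAC 0 to 1. All genes called in that last comparison numbered 182, and 477 without filter, 437 with DESeq2, 312 with only the compared groups and 74 to 156 leaving out a library. Thra in FAC against control reversed to 0.10 with stranded columns summed. The replicate block ended the MT+FAC against FAC call of Msrb1 (-0.43, adjusted p = 0.0538 by edgeR), and gave that of Dio1 (0.43, 0.0453) and the Lip-1+FAC against control call of Selenos (-0.17, 0.0384). Pairing of the libraries by their numbers was not seen, which does not exclude it. Same-numbered libraries of 18 pairs correlated from -0.25 to 0.16 in their deviations, with 3 pairs above 0.1. Of the 12 libraries, 4 correlated best with their own number. Leaving out FAC replicate 2, the deepest library, changed no member call in the 3 main comparisons. Where no cause is named, the cause was not tested. Depth limits Selenom (1 to 17 counts).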
